A study of Homo sapiens with 6 samples.

Results

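Cells make cholesterol and fatty acids from the same small building block, acetyl-CoA. Cholesterol synthesis runs through mevalonate, isoprenoids, squalene and lanosterol, and fatty acid synthesis runs through malonyl-CoA to palmitate, which is then elongated and desaturated. Many genes of both routes are turned on by the sterol regulatory element binding proteins (SREBPs), which the protein SCAP carries out of the endoplasmic reticulum when sterols are scarce and which the INSIG proteins hold back. A dividing lymphoblastoid cell uses both routes for its membranes.

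The 30 genes described here were a list of 16 enzymes of the sterol route, 5 regulators and carriers of sterols, and 9 enzymes of the fatty acid route, of 23284 gene symbols in the files. They were listed by name, with earlier results of these data known. The study had already reported FASN, the fatty acid synthase, among the genes lower in these lyophilized samples. The question asked here was whether FASN was lower after lyophilization alone or together with its pathway. All 30 were found, each as 1 record, and all 30 were among the 11134 genes tested (mean FPKM above 1 in at least 1 group). FPKM counts fragments per kilobase of transcript, scaled to the number of mapped reads, so that levels can be compared between genes.

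The cells were GM12873, an established human B-lymphoblastoid line, grown in serum-containing medium. Each sample held the same number of cells, washed in PBS, and the line was the only one sequenced. The 3 control samples went directly into TRIzol. The 3 lyophilized samples were freeze-dried in 0.1 M trehalose in PBS and kept for 2 weeks at room temperature before TRIzol was added, so drying, trehalose and storage cannot be told apart. The labels pair each control with the lyophilized sample of the same number. Poly(A) RNA of all 6 samples was sequenced with 75 bp single-end reads by a method that does not keep the strand.

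The files hold FPKM values and no read counts, so the depth behind a value cannot be read from them. The study lists read totals per library, which differ between the samples of a pair and were not used here. FPKM summed to between 468790 and 524744 per sample. All 6 B cell markers reported (MS4A1, CD79A, CD79B, CD22, PAX5 and CD74) were above 1 FPKM in every sample, and all markers of T cells (4 genes), monocytes (3), fibroblasts (3) and hepatocytes (3) stayed below 1. Of 3 adipocyte markers, ADIPOQ and PLIN1 stayed below 1 and FABP4 reached 2.56 FPKM in lyophilized sample 3. In bulk samples, fewer cells of a type and less RNA per cell cannot be told apart.

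Among the 9 fatty acid enzymes, FASN was the only one that differed between the groups when the samples were compared without their pairing. FASN builds palmitate from acetyl-CoA and malonyl-CoA, and its gene lies on chromosome 17 (chr17:80036214-80056106, hg19, minus strand). Its level was 59.7, 50.7 and 69.8 FPKM in controls and 27.7, 21.6 and 28.1 FPKM in lyophilized samples of pairs 1, 2 and 3. The highest lyophilized sample was thus well below the lowest control. Groups did not overlap for 22.2% of all genes tested. The mean was 60.1 ± 9.51 FPKM in controls and 25.8 ± 3.67 FPKM in lyophilized samples (SD, n = 3 each), 2.33-fold lower. On the log2(FPKM + 0.1) scale the difference was -1.21 ± 0.16 (SE), with an adjusted p of 0.037 (limma, Benjamini-Hochberg over all 11134 genes). It was -1.11, -1.23 and -1.31 within pairs 1, 2 and 3, and only 26 of the 11134 genes had a lower value of the difference. FASN was the 15th highest of the 30 genes in controls and the 22nd in lyophilized samples.

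This comparison without pairing called 1 of the 30 genes, beside 0.575% of all genes tested (64 genes). Without any 1 of the 6 samples no gene was called in it, and the adjusted p of FASN then ranged from 0.064 (without control 1) to 0.25 (without control 3). It was 0.086 when genes of low level were tested too.

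With the pairs in the fit, the spread within a group that both samples of a pair shared was taken out, and 13 of the 30 genes were called. A total of 9 were lower (LSS, MVD, DHCR7, SREBF1, SREBF2, SCAP, ACLY, FASN and FADS2), beside 14.9% of all genes, and 4 were higher (HMGCS1, IDI1, CYP51A1 and STARD4), beside 15.9% of all genes. FASN was -1.21 ± 0.060 (SE) in this fit, with an adjusted p of 2.6e-05. The median difference over the 30 genes was -0.0029 and over all genes 0.039. In all 3 pairs, 12 of the 30 genes were lower and 7 were higher in the lyophilized sample, beside 3209 and 3715 of 11134 genes.

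**Figure D1:**
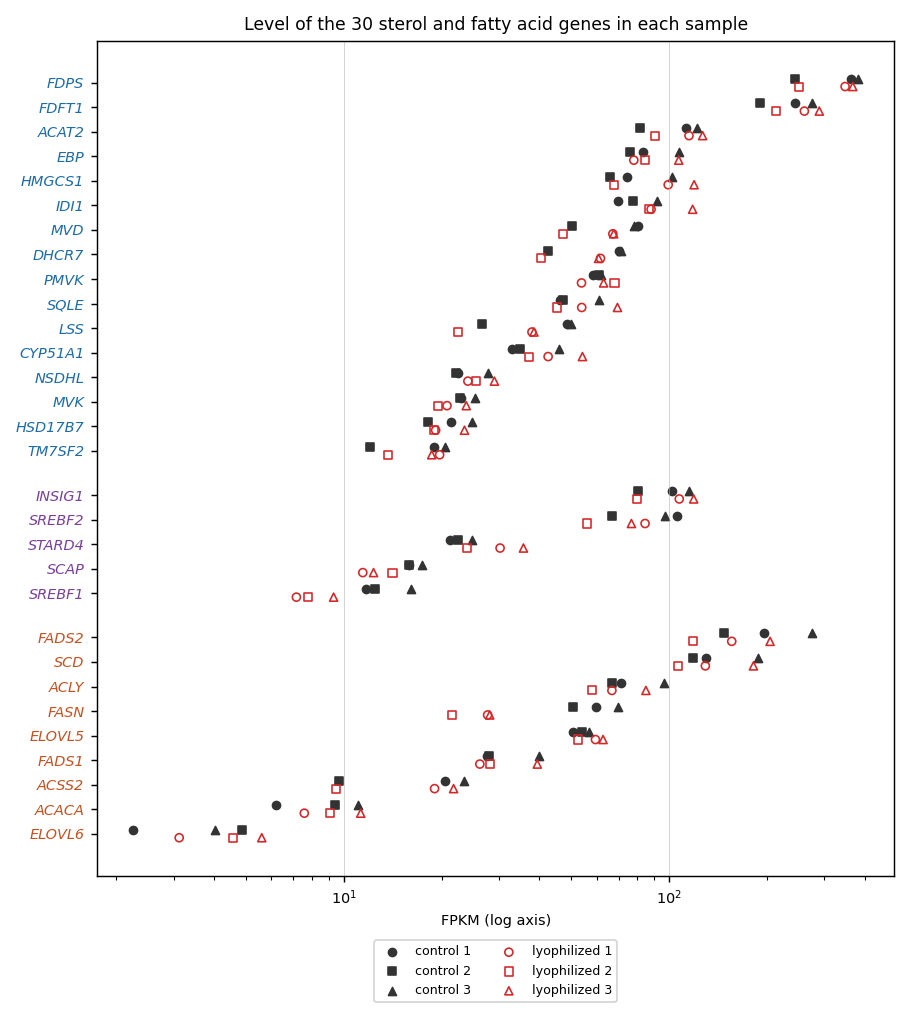
Level in FPKM (log axis) of the 30 genes in each of the 6 samples. Filled symbols are controls, open symbols are lyophilized samples, and the shape gives the pair. The 3 open symbols of FASN (21.6 to 28.1) lie to the left of its 3 filled symbols (50.7 to 69.8). SREBF1 and SCAP are the other genes whose groups do not overlap, as was the case for 22.2% of all genes tested.

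The enzymes that supply FASN with substrate moved less or not detectably. ACLY, which splits citrate to give cytosolic acetyl-CoA, was at 71.1, 67.0 and 96.5 FPKM in controls and 66.8, 57.9 and 85.0 FPKM in lyophilized samples. The groups overlapped, and ACLY was lower in each pair. It fell in the paired fit by 0.16 ± 0.051 (SE) on the log2 scale, with an adjusted p of 0.040 (limma). ACACA, the acetyl-CoA carboxylase that makes malonyl-CoA, was at 6.19, 9.40 and 11.1 FPKM in controls and 7.57, 9.09 and 11.3 FPKM in lyophilized samples. Its difference of 0.09 had a 95% interval from -0.12 to 0.29 with the pairs in the fit, and its adjusted p was 0.47. ACSS2, which makes acetyl-CoA from acetate, was at 20.5, 9.70 and 23.4 FPKM in controls and 19.0, 9.45 and 21.8 FPKM after lyophilization. ACSS2 differed more between pairs than between groups, and its difference of -0.08 had a paired interval from -0.23 to 0.07.

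The enzymes that lengthen and desaturate fatty acids held 1 gene called with the pairing, beside 14.9% of all genes called lower and 15.9% called higher. FADS2, the delta-6 desaturase, was at 196, 147 and 276 FPKM in controls and 156, 118 and 205 FPKM in lyophilized samples. Its groups overlapped, yet every lyophilized sample was below its own control, and in the paired fit FADS2 fell by 0.36 ± 0.046 (SE, adjusted p 0.0011, limma). FADS1, the delta-5 desaturase encoded beside FADS2 on chromosome 11, gave a difference of -0.03 with a paired interval from -0.16 to 0.10. SCD, the delta-9 desaturase that makes oleate, was at 130, 118 and 188 FPKM in controls and 129, 107 and 182 FPKM in lyophilized samples. Its paired interval ran from -0.17 to 0.04. The elongases ELOVL5 and ELOVL6 had differences of 0.11 and 0.27, and neither was called (adjusted p 0.19 and 0.14 in the paired fit). ELOVL6 had the lowest level of the 30 genes, with 2.25 FPKM in control 1 and at most 5.601 FPKM in any sample.

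FASN was therefore set against each of the other 8 enzymes within the same sample, as a ratio that no scaling between samples can change. The ratio of FASN to ACLY was 0.840, 0.757 and 0.723 in controls and 0.415, 0.372 and 0.331 in lyophilized samples. To SCD it was 0.460, 0.429 and 0.372 in controls and 0.214, 0.202 and 0.155 in lyophilized samples. All 3 lyophilized ratios lay below all 3 control ratios for these and for each of the other 6 enzymes. The 8 ratios hold the same FASN values, which already did not overlap between the groups, so they are not separate results. On the log2 scale the ratio differed by -0.86 (to FADS2) to -1.50 (to ELOVL6). Each of the 8 ratios had a p of 0.1 in the exact two-sided permutation test, which is the smallest p that 3 against 3 samples allow, and an adjusted p of 0.1 over the 8 ratios. With sign flips within the 3 pairs the exact p was 0.25, again the smallest possible.

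**Figure D2:**
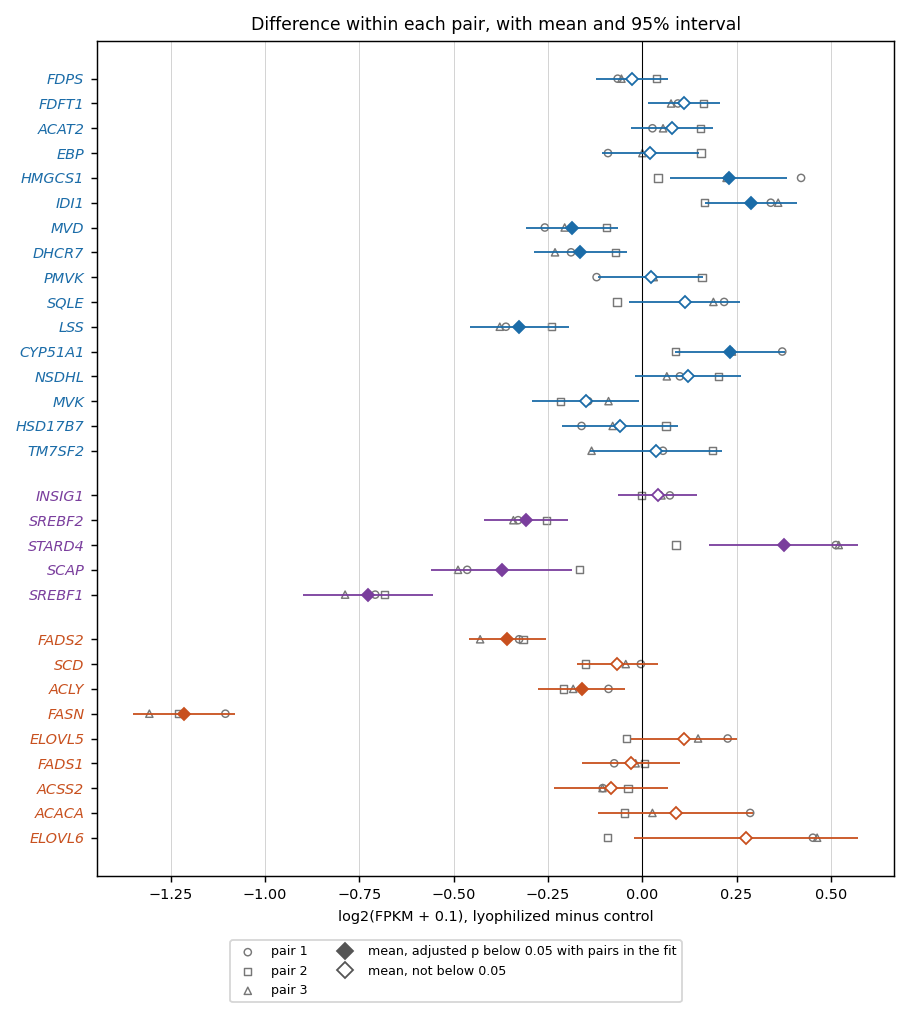
Difference in log2(FPKM + 0.1), lyophilized minus control, for each of the 30 genes. Open grey symbols are the 3 pairs, and diamonds are the means with the 95% interval of the paired fit, filled where the adjusted p was below 0.05. FASN stands at -1.21 with all pairs below -1.1, SREBF1 is next at -0.73, and the other 28 means lie between -0.37 and 0.37.

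Of the 5 regulators and carriers, none was called without the pairing (3 had an unadjusted p below 0.05, beside 1573 of 11134 genes). With the pairing 4 were called, of which 3 fell, beside 14.9% of all genes, and 1 rose, beside 15.9%. SREBF1, which encodes the SREBP-1 proteins that act mainly on fatty acid genes, was at 11.8, 12.5 and 16.2 FPKM in controls and 7.16, 7.75 and 9.31 FPKM in lyophilized samples. The groups did not overlap, as was the case for 22.2% of all genes tested. SREBF1 fell 1.67-fold in mean level and by 0.73 ± 0.077 (SE) on the log2 scale in the paired fit, with an adjusted p of 0.00048. Without the pairing the adjusted p was 0.11. RAI1 overlaps SREBF1 on the opposite strand, and without strand their reads cannot be told apart there.

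SREBF2, which encodes the SREBP-2 protein that acts mainly on sterol genes, was at 106, 66.7 and 97.2 FPKM in controls and 84.5, 55.9 and 76.7 FPKM in lyophilized samples. The groups overlapped, and SREBF2 was lower in each pair and fell in the paired fit by 0.31 ± 0.049 (SE, adjusted p 0.0028, limma). SCAP was at 15.8, 15.9 and 17.4 FPKM in controls and 11.5, 14.1 and 12.4 FPKM in lyophilized samples, with no overlap. It fell by 0.37 ± 0.083 (SE, adjusted p 0.011) in the paired fit and had an adjusted p of 0.23 without the pairing. INSIG1, itself a target of the SREBPs, was at 102, 80.1 and 115 FPKM in controls and 108, 80.0 and 119 FPKM after lyophilization. Its difference of 0.04 had a paired interval from -0.07 to 0.15. STARD4, a carrier that moves cholesterol between membranes, went the other way, with 21.2, 22.5 and 24.9 FPKM in controls and 30.3, 23.9 and 35.7 FPKM in lyophilized samples. STARD4 rose in the paired fit by 0.37 ± 0.088 (SE, adjusted p 0.013, limma), although in pair 2 the difference was only 0.09.

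None of the 16 sterol enzymes was called without the pairing, and none had an unadjusted p below 0.05 there. With the pairing 3 rose, beside 15.9% of all genes, and 3 fell, beside 14.9% of all genes. Over the 16 enzymes the median difference was 0.03. At the head of the route, HMGCS1, which makes HMG-CoA, was at 74.3, 65.9 and 102 FPKM in controls and 99.5, 67.8 and 120 FPKM in lyophilized samples. It rose by 0.23 ± 0.069 (SE, adjusted p 0.033, limma with pairs). ACAT2, which joins acetyl-CoA units one step earlier, gave 0.08 and was not called. Genes on the opposite strand (SOD2 and TCP1) overlap ACAT2.

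Of the mevalonate enzymes, MVD, which decarboxylates mevalonate diphosphate, fell by 0.19 ± 0.054 (adjusted p 0.029 with pairs), from 80.5, 50.5 and 78.1 FPKM to 67.3, 47.2 and 67.7 FPKM. The kinases MVK and PMVK had differences of -0.15 and 0.02 and were not called, and MMAB overlaps MVK on the opposite strand. IDI1, the isomerase that follows MVD, was at 69.6, 77.3 and 92.1 FPKM in controls and 88.1, 86.7 and 118 FPKM in lyophilized samples. IDI1 rose by 0.29 ± 0.055 (adjusted p 0.0056 with pairs) and was higher in each pair. FDPS, the farnesyl diphosphate synthase, was the most abundant of the 30 genes, at 364, 245 and 382 FPKM in controls and 348, 251 and 368 FPKM in lyophilized samples. Its difference was -0.03, with a paired interval from -0.12 to 0.07.

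In the squalene and lanosterol steps, FDFT1 (squalene synthase) gave 0.11 and SQLE (squalene epoxidase) gave 0.11, and neither was called. LSS, which closes squalene epoxide to lanosterol, was at 48.8, 26.6 and 50.01 FPKM in controls and 37.9, 22.5 and 38.5 FPKM in lyophilized samples. Although the groups overlapped, LSS fell within each pair, by 0.33 ± 0.059 (adjusted p 0.0045, paired fit). CYP51A1, the lanosterol demethylase that acts next, rose by 0.23 ± 0.065 (adjusted p 0.026 with pairs), from 32.9, 34.9 and 46.0 FPKM to 42.5, 37.1 and 54.2 FPKM. AKAP9 overlaps CYP51A1 on the opposite strand. LSS has a transcript of 58.1% GC and CYP51A1 one of 41.0%, and neither was called once GC content was corrected for (-0.13 and 0.04, adjusted p 0.088 and 0.62).

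The late steps held 1 gene called with the pairing, DHCR7, beside 14.9% of all genes called lower and 15.9% called higher. DHCR7, the reductase of 7-dehydrocholesterol, fell by 0.16 ± 0.055 (adjusted p 0.048 with pairs), from 70.2, 42.4 and 71.4 FPKM to 61.6, 40.4 and 60.8 FPKM. TM7SF2, NSDHL, HSD17B7 and EBP, which help remove methyl groups or shift or reduce double bonds of the sterol rings, gave 0.04, 0.12, -0.06 and 0.02, and none was called. HSD17B7 has a near-identical pseudogene copy, so its level is uncertain.

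The difference of a gene followed the GC content of its transcript. Across the 30 genes the Spearman correlation of the log2 difference with the GC content of the longest coding transcript was -0.82 (n = 30), and without FASN it was -0.80 (n = 29). Over all 10991 genes with an annotated transcript it was -0.75, and all of these values come from the same 6 libraries. The correlation over the 30 genes was -0.85, -0.45 and -0.86 in pairs 1, 2 and 3. The 6 genes with over 60% GC (MVK, MVD, TM7SF2, SREBF1, SCAP and FASN) had differences from -1.21 to 0.04. In order of rising GC content, these were -0.15 (MVK), -0.37 (SCAP), 0.04 (TM7SF2), -0.73 (SREBF1), -1.21 (FASN) and -0.19 (MVD). MVD had 65.5% GC and FASN 65.3%. The 6 with under 42% GC (HMGCS1, IDI1, CYP51A1, STARD4, ELOVL5 and ELOVL6) had differences from 0.11 to 0.37, so that no gene of the second set was lower and the 4 called higher all belong to it. Correlation with transcript length was -0.09 over the 30 genes.

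The coding sequences below illustrate the GC content and are not a further test of its relation to the difference. Each line below is a stretch of 90 bases of 1 coding exon, read 5′ to 3′ on the coding strand (GRCh37, all genes on the minus strand), chosen for a GC content nearest to that of the whole coding sequence, with G and C in capitals. FASN and SREBF1 are the genes with the lowest differences, ACACA is the enzyme just before FASN, and IDI1 and STARD4 are the genes with the highest differences among those called.
FASN, chr17:80051553-80051642: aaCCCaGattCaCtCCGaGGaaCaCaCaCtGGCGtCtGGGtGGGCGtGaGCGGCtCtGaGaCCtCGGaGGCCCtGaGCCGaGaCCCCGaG
SREBF1, chr17:17723717-17723806: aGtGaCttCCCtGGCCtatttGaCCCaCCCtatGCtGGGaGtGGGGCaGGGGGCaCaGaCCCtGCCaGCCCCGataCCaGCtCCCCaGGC
ACACA, chr17:35687270-35687359: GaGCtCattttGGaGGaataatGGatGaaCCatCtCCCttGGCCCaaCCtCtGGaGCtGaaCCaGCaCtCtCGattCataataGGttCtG
IDI1, chr10:1089991-1090080: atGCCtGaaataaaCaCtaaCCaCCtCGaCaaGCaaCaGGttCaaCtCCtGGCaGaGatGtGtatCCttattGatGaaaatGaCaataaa
STARD4, chr5:110843042-110843131: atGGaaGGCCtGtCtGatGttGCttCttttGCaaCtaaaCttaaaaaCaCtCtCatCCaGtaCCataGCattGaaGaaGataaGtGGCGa
In these stretches 59 of 90 bases are G or C in FASN and in SREBF1, 43 in ACACA, 35 in IDI1 and 36 in STARD4. The whole coding sequences hold 65.3% G and C in both FASN and SREBF1, 47.5% in ACACA, 38.8% in IDI1 and 40.3% in STARD4.

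**Figure D3:**
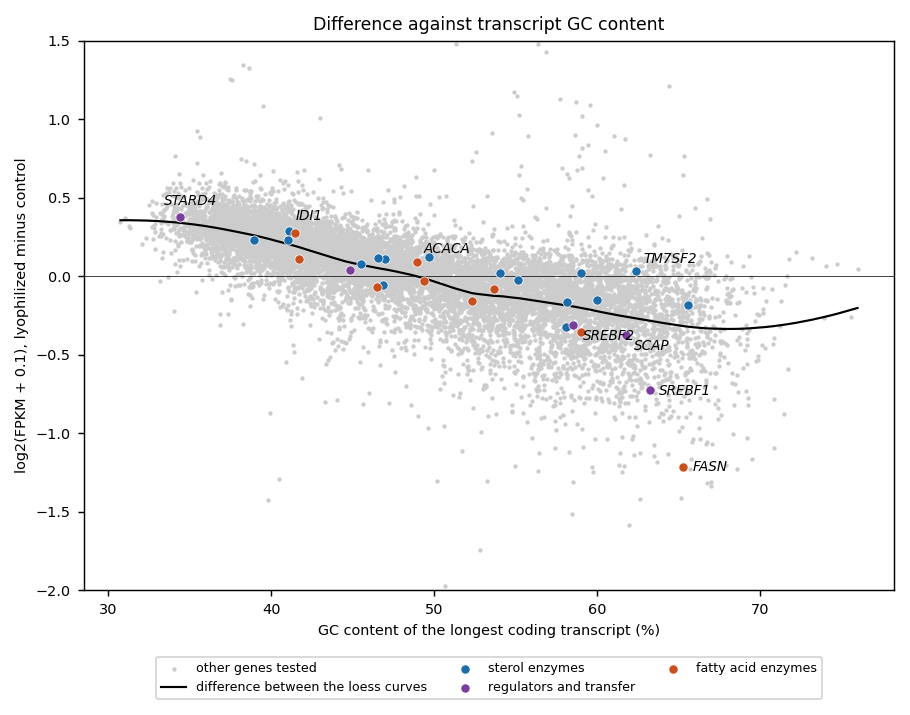
Difference in log2(FPKM + 0.1), lyophilized minus control, against the GC content of the longest coding transcript for the genes tested (grey) and the 30 genes (coloured by role), with the difference between the fitted loess curves of the groups as a line. A total of 8 genes lie outside the plotted range. The coloured points follow the falling line, with STARD4 at the upper left, and FASN and SREBF1 lie below the line at the lower right.

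When a curve of level against GC content was subtracted in each sample and the pairs were kept in the fit, 5 of the 30 genes were called. FASN (-0.89, 95% interval -1.03 to -0.75, adjusted p 0.00054) and SREBF1 (-0.44, interval -0.58 to -0.29, adjusted p 0.0039) were lower, beside 6.61% of genes with a transcript. PMVK (0.23, adjusted p 0.012), EBP (0.16, adjusted p 0.040) and TM7SF2 (0.31, adjusted p 0.011) were higher, beside 9.24% of genes. HMGCS1, IDI1, CYP51A1, STARD4, LSS, MVD, DHCR7, SREBF2, SCAP, ACLY and FADS2 were no longer called, with values between -0.15 and 0.14. The 3 genes called higher have transcripts of 1002, 1125 and 1578 nucleotides.

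When transcript length was added to the curve, FASN alone was called among the 30, at -0.26 (interval -0.40 to -0.13, adjusted p 0.028), beside 4.03% of genes called lower and 4.25% called higher. SREBF1 was then at -0.19 with an adjusted p of 0.068. ACACA at 0.21 and TM7SF2 at 0.18 had adjusted p of 0.082 and 0.092 (limma). Of the 30 genes, 8 had an unadjusted p below 0.05 in this fit, beside 2869 of 10991 genes. The FASN transcript has 8464 nucleotides and 65.3% GC, which put it at percentile 93.3 of length and 97.2 of GC content. Of 10991 genes, 6 had both values at least as high, FASN included, so the curve rests on few genes there. The study reported a higher median transcript length and GC content for its lowered protein-coding genes, FASN included, than for all human protein-coding genes. The part of GC content and length in the lower level of FASN was not tested here beyond these fits.

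**Figure D4:**
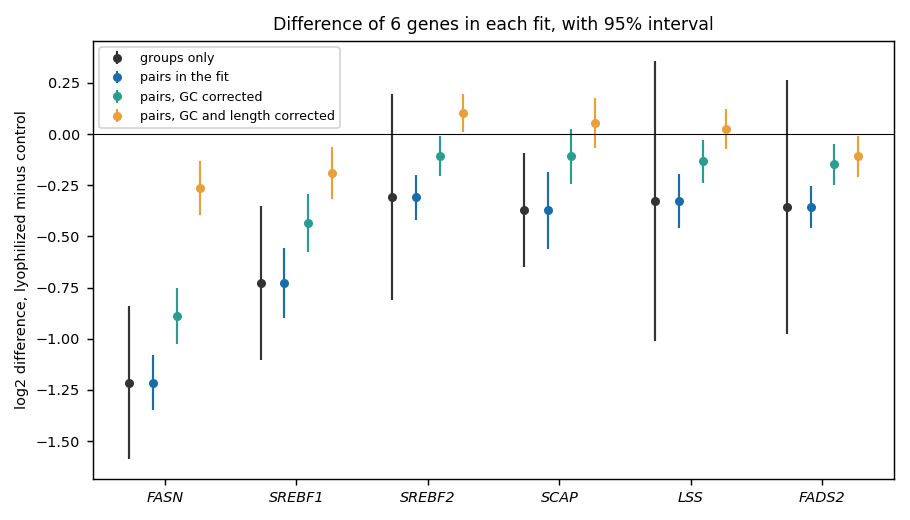
Difference in log2 level, lyophilized minus control, of 6 genes in 4 fits (groups only, pairs in the fit, and pairs with a correction for GC content or for GC content and length), with 95% intervals. The genes, all called lower in the paired fit, were chosen after their values were seen. FASN moves from -1.21 to -0.89 and -0.26, and SREBF1 from -0.73 to -0.44 and -0.19, while SREBF2, SCAP and LSS reach values of 0.02 to 0.10 in the last fit.

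The pairs also differed from each other. Tested in the paired fit, the level differed between the 3 pairs for 25 of the 30 genes, beside 45.2% of all genes, and MVK, PMVK, SCAP, STARD4 and ELOVL5 were not called. With the GC correction all 30 were called, beside 52.9% of genes. This test was added after the data had been seen, and it rests on 2 samples per pair. On the log2 scale, the difference between lyophilized and control samples was smaller than the span of the 3 pair means for 26 of the 30 genes, beside 73.3% of all genes, and the exceptions were SREBF1, SCAP, STARD4 and FASN. The highest pair mean was 1.45-fold the lowest in the median gene and 2.36-fold for ACSS2.

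The direction was shared by most of these genes. In both groups, pair 2 had the lowest level for 17 of the 30 genes, among them FASN, ACSS2, LSS, FDPS, HMGCS1, INSIG1 and SREBF2, beside 18.3% of all genes. Pair 3 had the highest level in both groups for 23 of the 30, beside 16.6% of all genes. ACSS2 at 9.70 and 9.45 FPKM in pair 2, against 19.0 to 23.4 FPKM in the other pairs, was the clearest case. LSS at 26.6 and 22.5 FPKM in pair 2, against 37.9 to 50.01 FPKM in the others, was similar. ACACA and ELOVL6 instead were lowest in pair 1 in both groups. The deviations of 2 samples of a pair from their group means correlated at 0.90, 0.82 and 0.79 over the 30 genes and at 0.72, 0.60 and 0.48 over all 11134 genes for pairs 1, 2 and 3. These genes thus differed between pairs in the same way before and after lyophilization.

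**Figure D5:**
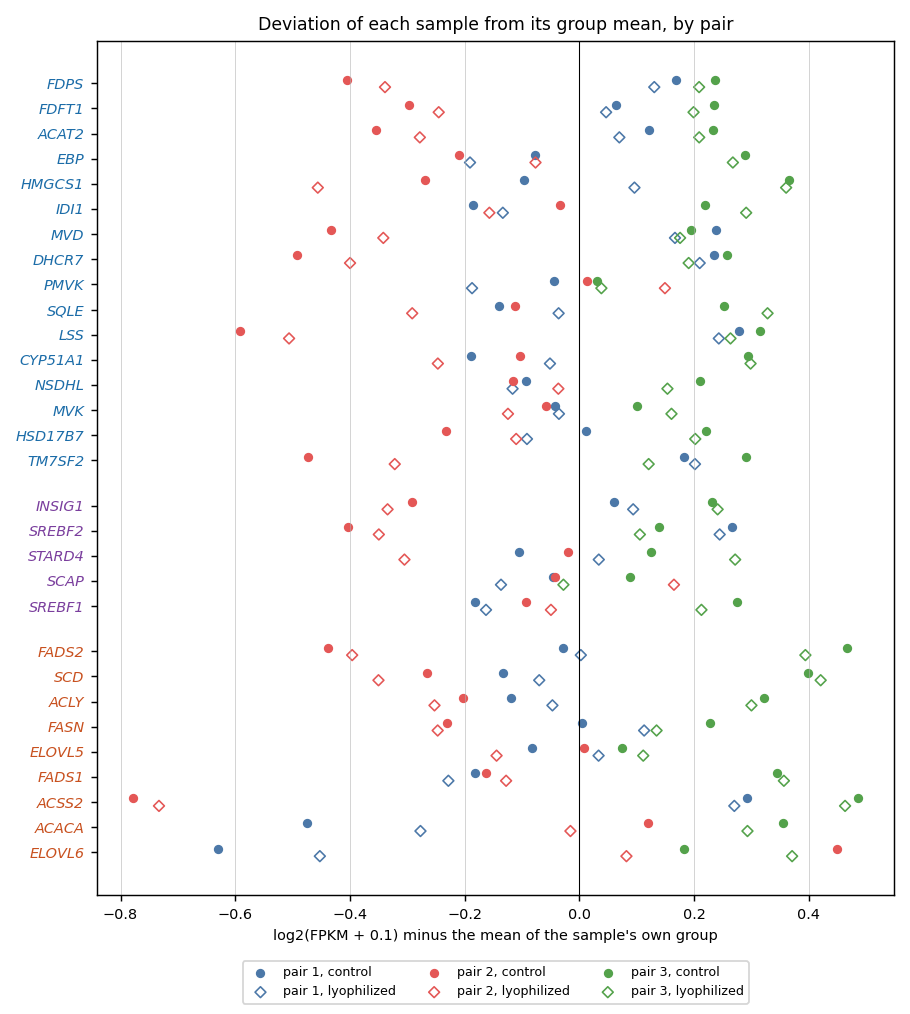
Deviation of each sample's log2(FPKM + 0.1) from the mean of its own group, for the 30 genes. Colour gives the pair, filled circles are controls and open diamonds are lyophilized samples. The 2 symbols of a pair mostly lie near each other, those of pair 2 mostly to the left and those of pair 3 to the right, and ACSS2 and LSS show a wide gap between pair 2 and the others.

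Promoter sequences of RefSeq (GRCh38.p14) were available for 26 of the 30 genes. ACAT2, FASN, FDFT1 and SQLE were not in the table. The 250 bases before each start were searched on both strands for the letters TCACCCCAC, a core of the sterol regulatory element, CCAAT, the box bound by NF-Y, GGGCGG, an Sp1 box, and CACGTG, an E-box. Only SREBF2 held TCACCCCAC, which 0.45% of all gene symbols in the table held, and no other gene held it with 1 base left free (TCACNCCAC). CCAAT was found in 19 of the 26 genes, beside 36.997% of all symbols, GGGCGG in 24, beside 46.2%, and CACGTG in 3, beside 7.73%. The symbols in the table were not limited to genes tested here, while all 26 genes were tested, so these shares compare unlike sets. A match is a run of letters and not a shown site of binding.

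The upstream sequences of SREBF2 and HMGCS1 show these letters in a regulator and in an early enzyme of the route. Whether the letters have a part in the level of either gene was not tested. Capitals mark TCACCCCAC and CCAAT, the latter read on the opposite strand as ATTGG.
SREBF2, chr22:41832855-41833104, plus strand: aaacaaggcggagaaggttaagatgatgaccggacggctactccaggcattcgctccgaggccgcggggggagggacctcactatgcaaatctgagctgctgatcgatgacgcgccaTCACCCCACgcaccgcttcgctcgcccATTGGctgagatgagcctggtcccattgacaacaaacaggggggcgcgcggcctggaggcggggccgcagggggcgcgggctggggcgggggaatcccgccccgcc
HMGCS1, chr5:43313413-43313662, minus strand: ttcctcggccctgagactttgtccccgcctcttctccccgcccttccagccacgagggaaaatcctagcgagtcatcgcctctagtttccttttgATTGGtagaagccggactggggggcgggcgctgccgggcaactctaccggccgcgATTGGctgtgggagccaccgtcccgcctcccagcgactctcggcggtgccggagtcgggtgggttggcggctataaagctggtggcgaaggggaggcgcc
In SREBF2 the sterol element core began 133 bases before the start and the CCAAT letters 106 bases before it. In HMGCS1 the 2 CCAAT matches began 155 and 100 bases before this start. The table lists a second start of HMGCS1 whose 250 bases hold no CCAAT match, and a gene was counted where any of its listed starts had a match.

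Outside the 30 genes, 44 further genes of these pathways were listed, of which 35 were tested. None was called without the pairing (3 had an unadjusted p below 0.05, beside 1573 of all 11134 genes). With the pairing 3 fell (FADS3, TECR and SLC25A1), beside 14.9% of all genes. A total of 12 rose (SC5D, MSMO1, GGPS1, LBR, ACAT1, INSIG2, MBTPS2, HSD17B12, HACD2, HACD4, ACSL3 and ACSL4), beside 15.9% of all genes. The median difference over the 35 genes was 0.10. FADS3, a desaturase gene next to FADS2, was at 3.39, 1.35 and 1.77 FPKM in controls and 2.30, 1.24 and 0.85 FPKM in lyophilized samples, and fell by 0.54 (adjusted p 0.047 with pairs). Of the regulators, INSIG2, the other INSIG gene, rose by 0.37 (adjusted p 0.0043), from 19.6, 17.6 and 17.4 FPKM to 26.7, 21.9 and 22.0 FPKM. MBTPS2, a protease that releases the SREBPs, rose by 0.42 (adjusted p 0.049), from 2.22, 3.93 and 3.61 FPKM to 3.99, 4.23 and 4.61 FPKM. HACD2, a dehydratase of fatty acid elongation, GGPS1, which makes geranylgeranyl diphosphate, and ACSL4, which activates arachidonic acid, rose by 0.38, 0.35 and 0.34.

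Across these 35 genes the Spearman correlation of the difference with GC content was -0.87. After the GC correction none of them was called (7 had an unadjusted p below 0.05, beside 3454 of 10991 genes). With length added NR1H2, a sterol-sensing nuclear receptor, and MID1IP1, a partner of acetyl-CoA carboxylase, were higher (0.23 and 0.20), beside 4.25% of genes. ACACB, the other acetyl-CoA carboxylase gene, ELOVL3, ELOVL4, ELOVL7, ACSL6, ABCA1, ABCG1, HACD1 and FAXDC2 had too low a level to be tested.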

How the data were processed

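Poly(A) RNA of 3 control and 3 lyophilized samples of GM12873 cells was sequenced. The authors mapped reads to hg19 (GRCh37) with TopHat 2.0.7, kept reads with 1 position, flagged duplicates and deposited FPKM values computed with Cufflinks, 1 table per sample. CASAVA 1.4 is in the submitters' processing notes. The Cufflinks version and annotation are not given in the sources used here. Depth cannot be read from the files, and no interval for counting error was computed.

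From the 24934 records, the one with the highest mean FPKM was kept per symbol (543 symbols had several). Small RNAs (1622 symbols) were removed, as were genes with a mean FPKM of 1 or less in both groups. Log2(FPKM + 0.1) of the 11134 remaining genes was compared between groups with limma 3.58.1 (R 4.3.3), with a mean-variance trend, Benjamini-Hochberg adjustment over all genes and a threshold of 0.05. The scale understates changes of low genes. The study's own test had no pairing, so the main fit had none. A second fit had the pair as a block. The pairing comes from the labels and the study, and deviations of paired samples correlated at 0.72, 0.60 and 0.48. The study speaks of paired cell batches without saying how they were grown apart, so p-values measure the spread between these samples, which may be partly technical. GC content and length were those of the longest coding GENCODE v44 (GRCh37) transcript, found for 10991 genes, 10763 by name and locus and 228 by an overlap of at least 0.5 of the union. A loess curve (span 0.3, degree 2) over GC content, or GC content and log2 length, was subtracted per sample. Ratios were tested with exact permutation tests (scipy 1.17.1). Tables and figures were made with matplotlib 3.10.9, pandas 2.3.3 and numpy 2.4.6 in Python 3.11.15. On simulated data, the fit without pairing recovered 58% of 2-fold and 0% of 1.25-fold changes, and the paired fit 74% and 0%. With a trend over GC content added and left in, 13.0% of the calls of the paired fit were false, beside 1.15% without it. After GC correction 1.16% were false. The simulation fixed the part of the spread shared by a pair and changed few genes, while the paired fit of the real data called 3423. These rates therefore do not carry over to the calls reported here.

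All 30 listed genes are named. Of the other pathway genes, the 6 with the largest change among those called with pairs have their values given, and other genes called are listed. The 30 genes and all gene lists were chosen with earlier results of these data known. Alternatives covered the pseudocount, filters, scaling, variance trend, records, pairs, corrections and each replicate left out. One listed marker gene is not reported here.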

Additional observations from a re-analysis of the deposited data

How the results depend on the processing

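The count of genes called by group alone (64) was 0 without a filter on low values (2069 of 18203 genes had an unadjusted p below 0.05), 3423 with pairs, 1743 with pairs and GC correction and 910 with length added. The count among the 30 genes (1) became 0, 13, 5 and 1. With 1 sample left out no gene was called, and 885 to 2110 had an unadjusted p below 0.05. Fewer samples then carry the estimate of the spread. Other pathway genes called (0) became 15 with pairs and 2 with GC and length correction.

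The blocked fit without pair 1, 2 or 3, added after seeing the data, called 2205, 5355 and 1257 genes, of which 8, 16 and 6 were among the 30 and 5, 20 and 2 among the other pathway genes. FASN, SREBF1, SREBF2, LSS, FADS2 and IDI1 were called in all 3 of these fits. Leaving out pair 2 raised all 3 counts, and leaving out pair 1 or pair 3 lowered them. Over all fits that left out samples, genes called ranged from 0 to 5355, those among the 30 from 0 to 16 and other pathway genes from 0 to 20.

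The sign of the log2 difference turned for HMGCS1 (-0.024), FDPS (0.12), MVK (0.081), MVD (0.14), DHCR7 (0.030), INSIG1 (-0.040), ELOVL5 (-0.067) and ACSS2 (0.050) with pairs and GC correction. With length added it turned for HMGCS1 (-0.023), LSS (0.024), FDPS (0.017), MVK (0.10), MVD (0.050), DHCR7 (0.047), ACAT2 (-0.046), INSIG1 (-0.051), SREBF2 (0.10), SCAP (0.054), ELOVL5 (-0.067), FADS1 (0.025) and ACSS2 (0.044). Quantile normalization turned PMVK (-0.014) and EBP (-0.00785). The paired fit without pair 2 turned PMVK (-0.045), EBP (-0.045) and TM7SF2 (-0.040), and without pair 1 ACACA (-0.010). With 1 sample left out, the values that changed sign ranged as follows, with no call among them. The sterol genes were SQLE from -0.051 to 0.26, FDPS from -0.23 to 0.14, FDFT1 from -0.037 to 0.23, PMVK from -0.052 to 0.12, DHCR7 from -0.41 to 0.036, HSD17B7 from -0.17 to 0.052, EBP from -0.11 to 0.17, TM7SF2 from -0.20 to 0.20, ACAT2 from -0.098 to 0.22. The others were INSIG1 from -0.11 to 0.21, ACLY from -0.31 to 0.000267, ACACA from -0.15 to 0.27, SCD from -0.28 to 0.13, ELOVL6 from -0.040 to 0.50, FADS1 from -0.21 to 0.14, ACSS2 from -0.47 to 0.28. The cause of these turns was not tested. The FASN ratios kept their sign in every alternative run.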
